A study of Homo sapiens with 4 samples.

Results

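Ends of protein-coding genes that carried a p53 peak in the second CASM34 library and in no other library of the series are described here. H1299 is an established human lung carcinoma line with the labelled genotype p53-/-, and all 4 libraries came from it. The cells expressed either the CASM34 mutant (CASM34 1 and CASM34 2) or wild-type p53 (p53WT 1 and p53WT 2), with 2 libraries per group, and chromatin was precipitated with the p53 antibody DO-1. The series' title concerns cancer-associated synonymous mutations, which change a codon without changing the amino acid it encodes; the labels name no base change, no expression vector, no damaging agent and no time. Nothing in them says whether the libraries of a group came from separate cultures, and cell type markers could not be checked in peak lists.

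Peaks of the 4 libraries on chromosomes 1 to 22 and X were merged by any overlap into 7727 regions. Of these, 1576 held a peak of CASM34 2 alone, and in 700 of the 1576, selected on these peak calls, the midpoint lay within 1 kb of either end of a RefSeq protein-coding gene (44.4%, 95% Clopper-Pearson interval 41.9 to 46.9, counting error only). These 700, called members from here on, were among 2468 gene-end regions in the series. The same rule gave 25 regions for CASM34 1 alone, 1310 for p53WT 2 alone and 15 for p53WT 1 alone, and 339 gene-end regions were called in CASM34 2 and p53WT 2 only. The lists held 3196 peaks in CASM34 2, 1698 in CASM34 1, 4946 in p53WT 2 and 1591 in p53WT 1, and their read depth is unknown. The rule is a rule on peak calls in single libraries, so the number of regions and their absence from the other 3 lists were fixed by the choice and are given as a description, with no test. Because CASM34 1 lacks these peaks by the rule, nothing here compares CASM34 with wild-type p53 over replicates.

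The tumour suppressor p53 is a transcription factor that binds DNA as a tetramer. Its response element consists of a pair of half-sites, each with a conserved core, and lies in many targets upstream of the start or in the first intron. Targets include CDKN1A, which stops the cell cycle, genes of the mitochondrial and death receptor routes to apoptosis, and genes of DNA repair. Most human gene starts lie in CpG islands, stretches rich in G, C and the CpG dinucleotide, which are often open chromatin.

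Promoter sequences are shown so that the base composition described further on can be seen beside the peaks. They are taken from the 250 bases before the RefSeq start, where the CASM34 2 peak reached into them, and stop where another protein-coding gene begins. The first set holds direct p53 targets, chosen after their values were seen. TRIAP1 encodes a mitochondrial inhibitor of apoptosis and E2F7 a repressor of cell cycle genes. Sequences are from RefSeq, build GRCh38.p14, written 5′ to 3′ on the strand of the gene, and capitals mark the bases inside the deposited CASM34 2 peak.
TRIAP1 (chr12:120446385-120446443, minus strand): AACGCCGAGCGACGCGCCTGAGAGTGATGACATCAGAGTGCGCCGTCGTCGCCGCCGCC
E2F7 (chr12:77065570-77065819, minus strand): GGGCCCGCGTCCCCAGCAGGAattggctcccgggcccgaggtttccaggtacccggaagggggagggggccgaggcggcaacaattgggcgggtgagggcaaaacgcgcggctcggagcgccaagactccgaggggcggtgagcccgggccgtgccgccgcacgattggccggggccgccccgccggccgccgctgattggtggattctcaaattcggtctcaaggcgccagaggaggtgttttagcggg
The TRIAP1 peak covered all 59 bases shown and the E2F7 peak 21 of 250. Neither stretch held an exact match to the p53 half-site consensus. The E2F7 stretch held 4 matches to CCAAT, the NF-Y box, and 3 to GGGCGG, the GC box bound by SP1, counted on both strands.

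The second set holds members of high deposited −log10 q (the authors' q value on a −log10 scale) whose summit fell inside the promoter window, from 250 bases before to 50 after the start. MAPKAPK5 encodes a stress-activated MAP kinase-dependent kinase, PRKD3 a protein kinase D, and RALA a small GTPase related to Ras.
MAPKAPK5 (chr12:111841978-111842227, plus strand): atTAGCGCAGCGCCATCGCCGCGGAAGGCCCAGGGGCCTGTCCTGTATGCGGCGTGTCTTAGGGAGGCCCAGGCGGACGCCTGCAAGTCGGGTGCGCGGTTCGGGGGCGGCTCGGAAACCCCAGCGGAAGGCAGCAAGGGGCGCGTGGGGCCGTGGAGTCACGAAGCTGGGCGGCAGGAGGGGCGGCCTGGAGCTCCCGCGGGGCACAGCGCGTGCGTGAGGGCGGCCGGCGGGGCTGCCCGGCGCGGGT
PRKD3 (chr2:37324834-37325083, minus strand): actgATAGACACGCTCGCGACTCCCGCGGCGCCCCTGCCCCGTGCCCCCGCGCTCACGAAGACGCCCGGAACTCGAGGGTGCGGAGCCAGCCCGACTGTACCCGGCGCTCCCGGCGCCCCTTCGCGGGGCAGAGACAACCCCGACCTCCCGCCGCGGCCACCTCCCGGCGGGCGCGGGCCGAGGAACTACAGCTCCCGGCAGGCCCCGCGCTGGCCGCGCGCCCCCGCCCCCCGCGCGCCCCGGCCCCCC
RALA (chr7:39623322-39623571, plus strand): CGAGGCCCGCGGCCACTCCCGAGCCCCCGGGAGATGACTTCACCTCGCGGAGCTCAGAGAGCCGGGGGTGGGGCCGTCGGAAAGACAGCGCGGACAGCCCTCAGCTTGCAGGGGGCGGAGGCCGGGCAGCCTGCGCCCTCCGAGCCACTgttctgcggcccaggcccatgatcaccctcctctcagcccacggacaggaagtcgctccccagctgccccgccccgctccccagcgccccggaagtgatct
G and C made up 75.6% of the MAPKAPK5 stretch, 80.4% of PRKD3 and 72.8% of RALA. GC boxes numbered 4 in MAPKAPK5, 1 in PRKD3 and 2 in RALA, and no p53 half-site matched in any of them. The deposited −log10 q of these peaks was 4.48 for MAPKAPK5, 4.36 for PRKD3 and 3.86 for RALA.

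The region of highest rank was at CDKN1A, the gene of the cell cycle inhibitor p21. It lay on chromosome 6 from 36676192 to 36676642, with a deposited fold of 6.31 (the authors' ratio of signal to background) and a −log10 q of 10.7. Its summit at 36676300 stood 163 bases outside the outermost annotated end of the gene. Relative to the RefSeq start at 36678714 its position was −2414 bases, on the side where CDKN1A is known to carry its p53 response elements. The nearest peak of p53WT 2 was another one, from 36678790 to 36678986, with its summit 176 bases after that start, a fold of 4.18 and a −log10 q of 3.39. CASM34 1 and p53WT 1 had no summit within 10 kb of the gene. CASM34 2 had a further summit at 36667422, with a −log10 q of 1.93. MDM2, the ubiquitin ligase that limits p53, was not a member; its peak was in p53WT 2, where it had a −log10 q of 3.50.

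Genes known as direct p53 targets made up 16 of the 788 genes that had an end within 1 kb of a member. The lists held 158 such targets, so 10.1% of them were at a member (95% Clopper-Pearson interval 5.90 to 15.9), against 3.95% of all 19974 protein-coding genes. The same targets numbered 19 at regions of p53WT 2 alone (against 7.07% of all genes) and 13 at regions called in CASM34 2 and p53WT 2 only (8.23%, against 1.95%). In all 3 sets the share of targets was thus above that of all genes, and the difference between the sets was not tested. With p53WT 2 left out of the rule, 27 targets (17.1%) stood at 1042 regions, which lay at 5.80% of all genes. The median −log10 q was 3.25 over the 16 target regions and 2.63 over the 700.

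**Figure D1:**
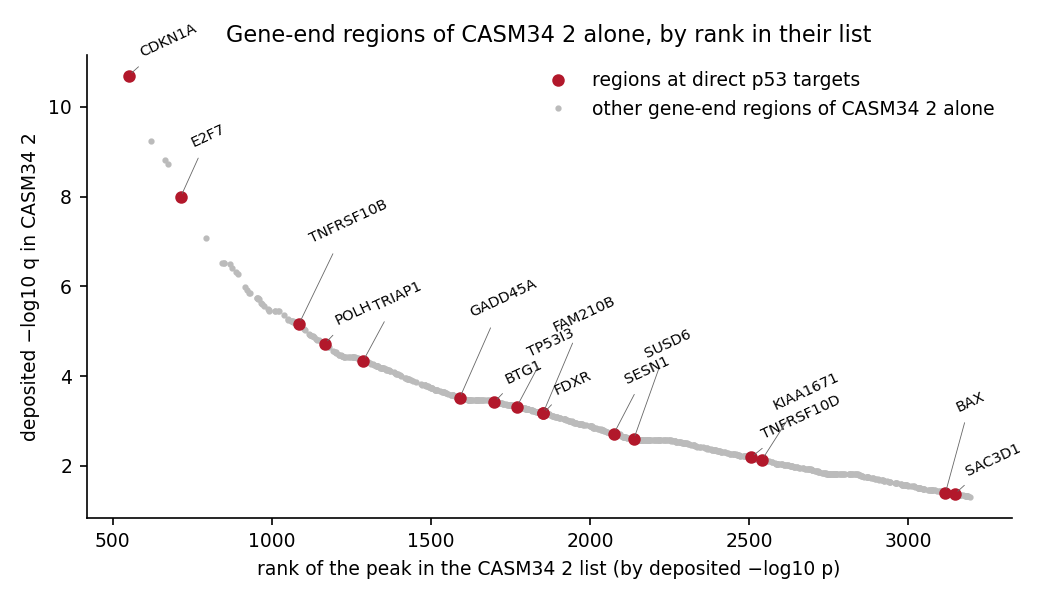
Deposited −log10 q (vertical axis) of the 700 gene-end regions called in CASM34 2 alone against the rank of the peak in the CASM34 2 list by deposited −log10 p (horizontal axis). Red points are the 16 regions at direct p53 targets, which run from CDKN1A at 10.7 to SAC3D1 at 1.37, and grey points are the other regions.

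Arrest and feedback targets stood at 5 members, of 25 on the list (95% interval 6.83 to 40.7%), where 3.95% of all genes stood at a member. The count was also 5 of 25 at p53WT 2 alone, where 7.07% of all genes stood, and 2 at regions called in CASM34 2 and p53WT 2 only, where 1.95% stood. Beside CDKN1A these were E2F7, GADD45A, BTG1 and SESN1. E2F7 (chromosome 12, 77065799 to 77066052) had a fold of 7.08 and a −log10 q of 7.99, with the summit 390 bases upstream of the start. No peak of another library lay closer to it than 1033558 bases. BTG1, an antiproliferative gene, had a summit 250 bases after its start (chromosome 12, 92145526 to 92145733) and a −log10 q of 3.42. At GADD45A, a stress-response gene of growth arrest and repair, the member (chromosome 1, 67685289 to 67685509, −log10 q 3.51) lay 199 bases from a p53WT 2 peak. That p53WT 2 peak overlapped a second CASM34 2 peak from 67685864 to 67686639, with a −log10 q of 6.44 in the CASM34 2 list and, for the p53WT 2 peak, of 3.07 in its own list. GADD45A was thus called in both libraries, and the member is the one of its CASM34 2 peaks that had no counterpart.

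SESN1, a sestrin that restrains growth signalling under stress, had the same arrangement over a longer distance. Its member (chromosome 6, 109094645 to 109094866) had a −log10 q of 2.72 and lay at the outermost end, shared with the opposite start of CEP57L1. Near the RefSeq start, relative to which the member's summit stood at −85717 bases, CASM34 2 had a peak from 109009078 to 109009540 with a fold of 8.77 and a −log10 q of 11.9. There p53WT 2 had a −log10 q of 3.73 and p53WT 1 one of 3.43, in overlapping peaks. The strongest SESN1 peak was therefore shared across groups and is no member.

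Apoptosis targets stood at 6 members, of 26 on the list (95% interval 8.97 to 43.6%, against 3.95% of all genes). There was 1 gene of the list at p53WT 2 alone (7.07% of all genes) and 4 were at regions called in CASM34 2 and p53WT 2 only (1.95% of all genes). By count, the other target lists were level or higher at p53WT 2 alone, as given with each. That set covers 7.07% of all genes and the members 3.95%, and no difference between the sets was tested. TNFRSF10B, the death receptor DR5, had the highest value (chromosome 8, 23068627 to 23068884, fold 5.68, −log10 q 5.16). Its relative TNFRSF10D, a decoy receptor, had a −log10 q of 2.19 at 23163697 to 23163879 on the same chromosome. TRIAP1 had 4.34, in a region shared with the opposite start of GATC (chromosome 12, 120446168 to 120446632). TP53I3, a quinone oxidoreductase first found as a p53-induced gene, had 3.32, with its summit 330 bases after the start. FDXR, the mitochondrial ferredoxin reductase, had 3.17. BAX, the pore-forming effector of the mitochondrial route, had only 1.40, with the list's lowest value at 1.31. Neither within these 6 genes nor within 10 kb of their ends did p53WT 2, CASM34 1 or p53WT 1 have a summit. Such absence was common among members. Of all 788 member genes, 21.6% had a p53WT 2 summit within 10 kb of an end. For CASM34 1 the share was 1.90% and for p53WT 1 it was 1.52%.

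The remaining targets were few. DNA repair and nucleotide genes gave 2 of 16 at members, POLH and SAC3D1 (95% interval 1.55 to 38.3%, against 3.95% of all genes). The same list gave 4 of 16 at p53WT 2 alone, where 7.07% of all genes stood. Its count was 2 of 16 at regions called in CASM34 2 and p53WT 2 only (12.5%, against 1.95%). POLH, the gene of the translesion DNA polymerase eta (chromosome 6, 43575540 to 43575988), shares its start region with XPO5, the exporter of microRNA precursors, and had a −log10 q of 4.72. At SAC3D1 the member had a −log10 q of 1.37, while a second CASM34 2 peak nearer the gene end was shared with p53WT 2. Metabolism, redox and autophagy targets gave 0 of 27 at members (upper 95% bound 12.8%, against 3.95% of all genes). They gave 3 of 27 at p53WT 2 alone (11.1%, against 7.07%). At regions called in CASM34 2 and p53WT 2 only they also gave 3 (11.1%, against 1.95%). The list of other targets gave 3 of 65 at members (4.62%, near the 3.95% of all genes). It gave 6 of 65 at p53WT 2 alone (9.23%, against 7.07%). At regions called in CASM34 2 and p53WT 2 only it gave 2 (3.08%, against 1.95%). The 3 at members were FAM210B (−log10 q 3.17), SUSD6 (2.59) and KIAA1671 (2.14). The SUSD6 member ended 21 bases short of a p53WT 2 peak (−log10 q 1.87).

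**Figure D2:**
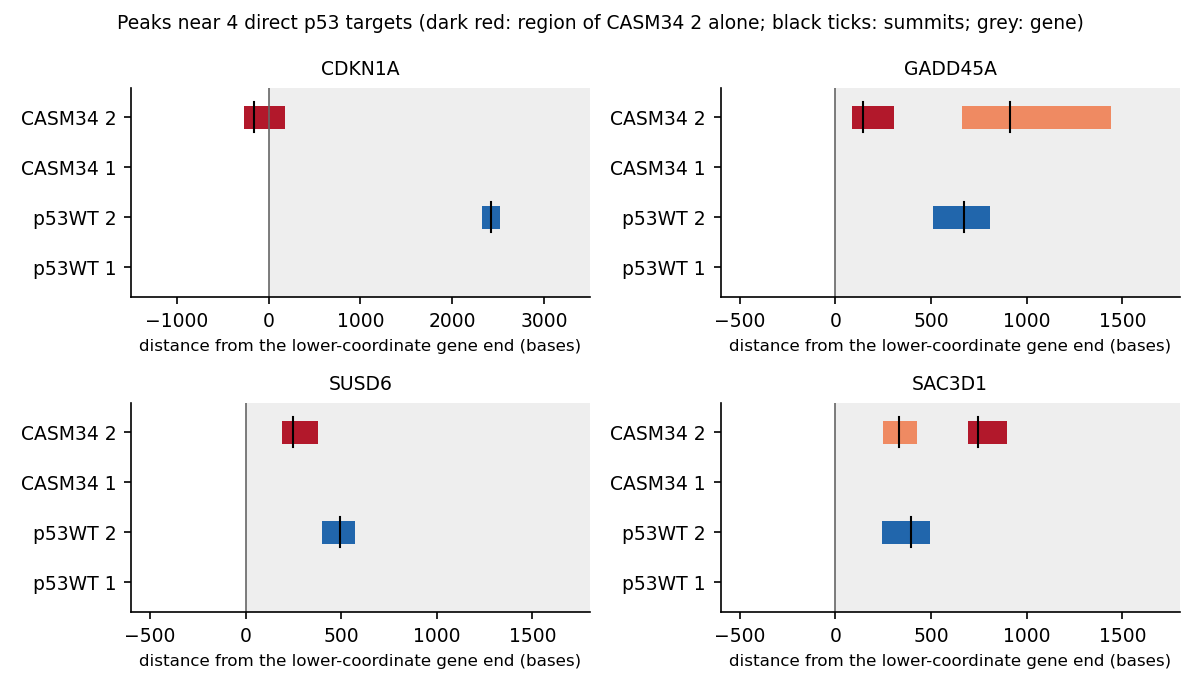
Deposited peaks (bars) and summits (black ticks) of the 4 libraries near CDKN1A, GADD45A, SUSD6 and SAC3D1, by distance in bases from the lower-coordinate end of the gene (grey). Dark red bars are the regions of CASM34 2 alone; at CDKN1A the p53WT 2 peak stands 2147 bases away, while at the other 3 genes it stands within 199 bases of the region.

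Neighbouring p53WT 2 peaks were common over the 700 regions as a whole. A p53WT 2 peak lay within 1 kb of 109 of them (15.6%, 95% interval 13.0 to 18.5) and within 10 kb of 129 (18.4%). For CASM34 1 the counts were 6 and 10, and for p53WT 1 they were 1 and 8, from much shorter lists. Any of the 3 had a peak within 10 kb of 138 members (19.7%), a share of 8.66% where every list was limited to a −log10 q of at least 3. Where only CASM34 2 was limited in this way and all peaks of the other lists stayed, the share was 20.5%. Counted by gene, 115 of the 788 genes (14.6%) had a p53WT 2 summit within 1 kb of an end, against 9.17% of all protein-coding genes. At PKD2, the polycystin-2 channel gene, a member of −log10 q 5.75 stood 236 bases from a p53WT 2 peak. YAF2, of a Polycomb complex, had 5.57 at 251 bases, and the ion transporter gene SLC12A2 had 5.22 at 212 bases. These 3 genes were chosen after their values were seen. For such a region the absence from p53WT 2 says that 2 called intervals did not meet, not that the gene start was without p53WT signal.

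Members were weak peaks in their own list. Their −log10 q ran from 1.31 to 10.7 with a median of 2.63 and quartiles of 1.99 and 3.51, and their fold from 2.30 to 7.85 with a median of 4.59. In the same list, gene-end regions shared with p53WT 2 only had a median −log10 q of 3.18, and regions called in all 4 libraries one of 17.5. Peaks of CASM34 2 alone away from gene ends had 2.57. A −log10 q of at least 3 was reached by 293 members and of at least 5 by 45. By rank, 28 of the 700 stood among the best 1000 peaks of the list. Many members carried the same deposited values: 432 (61.7%) shared both fold and −log10 p with another member, and the largest such set held 31. The p53WT 2 alone regions had a median of 2.61 in their own list.

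The members of highest −log10 q after CDKN1A were a varied group. An uncharacterised locus, LOC124901650 on chromosome 7 (63754871 to 63755103), had 9.25, and it lies beside other unnamed loci that may share reads. WDR35, of the ciliary transport machinery, had 8.82 (chromosome 2, 19990231 to 19990411, fold 7.85). FANCA, of the Fanconi anaemia pathway of crosslink repair, had 8.72 (chromosome 16, 89816317 to 89816621). Then came E2F7 and the histone gene H3C15 with 7.09. TERF2, a telomere-binding protein gene, TCTN1, of the ciliary transition zone, and RETREG3, an ER-phagy receptor gene, each had 6.53. CEBPZOS had 6.49. The lowest −log10 q values belonged to ANKRD18A (1.31), TPM1 (1.32) and POU3F2 (1.32).

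Gene families with housekeeping roles were also present, none of them lists of direct p53 targets. Cytosolic ribosomal protein genes stood at members in 7 of 84 cases (8.33%, 95% interval 3.42 to 16.4, against 3.95% of all genes), led by RPLP1 (−log10 q 3.45), RPS20 (3.35), RPL36 (2.70) and RPL37 (2.65). Their mitochondrial counterparts gave 0 of 77 (upper bound 4.68%). Splicing factor genes gave 8 of 85 (9.41%, 4.15 to 17.7), among them SRSF2 (4.37), SNRPA1 (4.36), SRSF12 (3.41) and SRSF1 (3.24). The same list gave 9 of 85 at p53WT 2 alone (10.6%, against 7.07% of all genes). It gave 5 at regions called in CASM34 2 and p53WT 2 only (5.88%, against 1.95%), so a share above that of all genes was not particular to members. Oxidative phosphorylation genes gave 6 of 96 (2.33 to 13.1%) at 5 regions, since ATP5MF and ATP5MF-PTCD1 share 1 region, which had 6.27. UQCRFS1 had 4.22, and SDHA, the flavoprotein subunit of succinate dehydrogenase, had 3.78. Replication-dependent histone genes gave 5 of 69 (2.39 to 16.1%) at 4 regions, namely H3C15, H2AC20 and H2AC21 (which share 1 region at 4.44), H4C14 (1.81) and H4C11 (1.61). The intervals count genes that share a region separately. The intervals of the ribosomal protein, oxidative phosphorylation and histone lists include the 3.95% of all genes. At p53WT 2 alone the cytosolic ribosomal protein, oxidative phosphorylation and histone lists stood at 5.95%, 5.21% and 7.25%, against 7.07% of all genes. Histone genes, ribosomal protein genes and HSPA1B (1.72) have near-identical copies or processed pseudogenes, so that their peaks are uncertain.

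The other families stood at members on both sides of the 3.95% of all genes, from 0 for olfactory receptor genes to 8.33% for ubiquitin conjugases. DREAM targets, cell cycle genes that this repressor complex silences, gave 3 of 48, among them CCNE1 at 2.00 and BIRC5 at 1.47, against 10 of 48 at regions of p53WT 2 alone, where 7.07% of all genes stood. Heat shock and immediate early genes gave 1 of 31, translation initiation factors 1 of 55 (EIF3A at 2.57), Mediator and RNA polymerase II genes 1 of 41 (POLR2M at 1.81) and proteasome genes 2 of 50 (PSMB2 at 2.57 and PSMA7 at 2.42). At p53WT 2 alone these lists gave, in the same order, 5 of 31, 8 of 55, 3 of 41 and 9 of 50. A higher count there was thus not particular to DREAM targets. Zinc finger genes gave 16 of 517 (3.09%), led by ZNF804B at 5.26 and ZNF639 at 4.22, solute carriers 8 of 351 (2.28%), led by SLC12A2, and TMEM genes 10 of 233 (4.29%), led by TMEM229A at 4.40. At p53WT 2 alone their shares were 6.96%, 6.55% and 6.01%, against 7.07% of all genes. Small families gave 3 of 36 ubiquitin conjugases (UBE2D1 at 3.46), 4 of 53 DEAD and DEAH box helicases (DDX17 at 3.68), 2 of 34 tRNA synthetases (HARS1 and HARS2, which share 1 region at 3.46) and 2 of 63 RAB GTPases (RAB6D at 1.91 and RAB5B). At p53WT 2 alone these gave, in the same order, 7 of 36, 6 of 53, 1 of 34 and 1 of 63. No difference between the sets was tested. Olfactory receptor genes, which act mainly in the nose, gave 0 of 392, with an upper Clopper-Pearson bound of 0.937%.

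**Figure D3:**
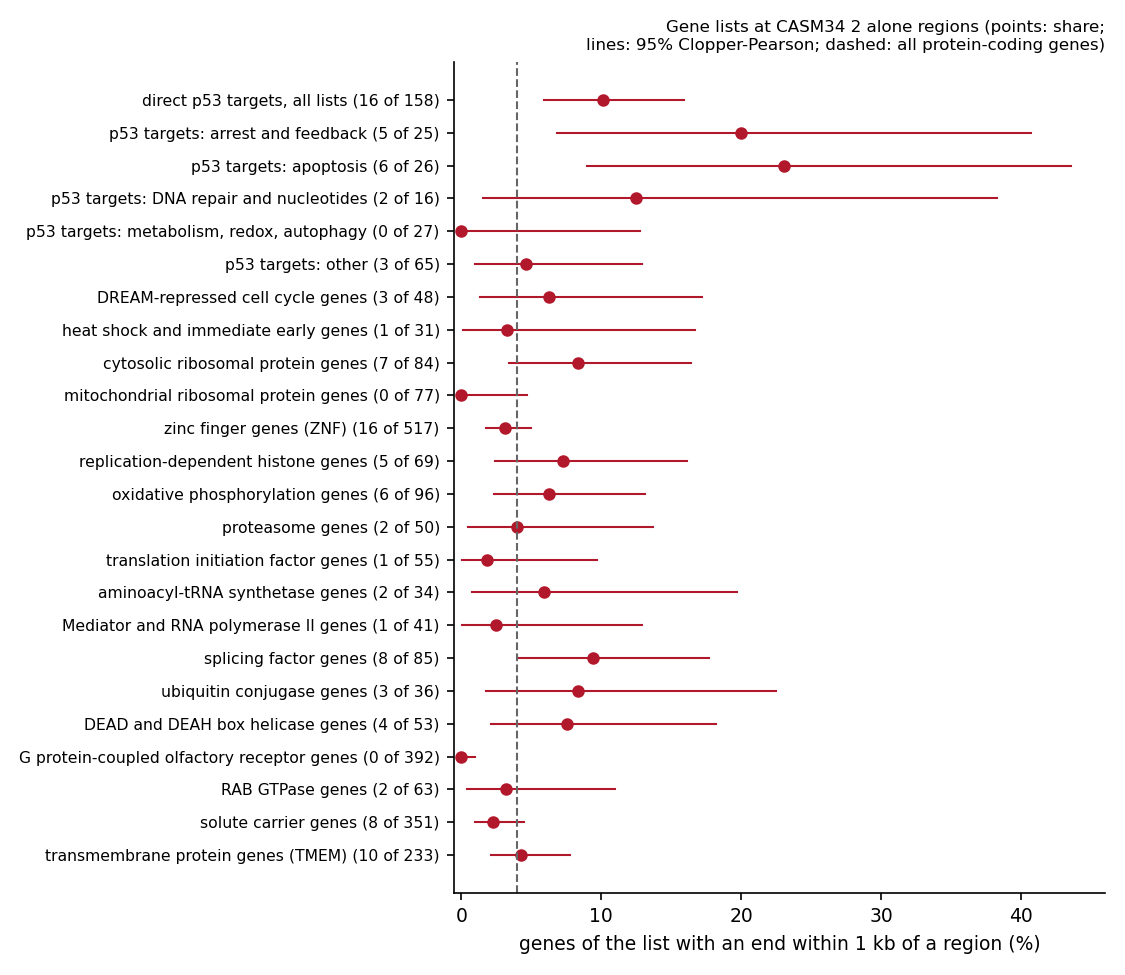
Share of each gene list (horizontal axis, percent) with an end within 1 kb of a region called in CASM34 2 alone; points are shares, lines 95% Clopper-Pearson intervals and the dashed line the 3.95% of all protein-coding genes. Arrest and feedback targets (5 of 25) and apoptosis targets (6 of 26) stand farthest to the right, and olfactory receptor genes (0 of 392) at 0.

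Gene starts, not far ends, carried nearly all members, which the rule did not ask for. The strand was known for 567 regions, and the nearest end was the start in 545 of them (96.1%, 95% interval 94.2 to 97.6) and the far end in 22. The share was 96.7% for p53WT 2 alone and 98.4% for regions called in CASM34 2 and p53WT 2 only. Regions near the ends of more than 1 gene numbered 103 (14.7%). In 39 (5.57%) the midpoint lay near a pair of starts that face away from each other, as at POLH and XPO5, TRIAP1 and GATC, NCAPG and DCAF16, and HARS1 and HARS2. Divergent pairs made up 5.11% of the p53WT 2 alone regions.

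Summits lay mostly just inside the gene. Over 498 members with a RefSeq start within 1 kb, the median summit position was 170 bases after the start, with quartiles of 13.0 and 340. Downstream of the start were 374 (75.1%, 95% interval 71.1 to 78.8), and 311 (62.4%) lay between 50 and 600 bases after it. Only 71 (14.3%) fell in the promoter window itself. For p53WT 2 alone the median was 146 bases and the downstream share 73.4% (70.4 to 76.3), an interval that overlaps that of the members. Regions called in CASM34 2 and p53WT 2 only had a median of 202 bases and a downstream share of 82.0% (76.3 to 86.9), which also overlaps it. Overlap of these intervals does not show that the sets are alike, and no difference between them was tested.

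**Figure D4:**
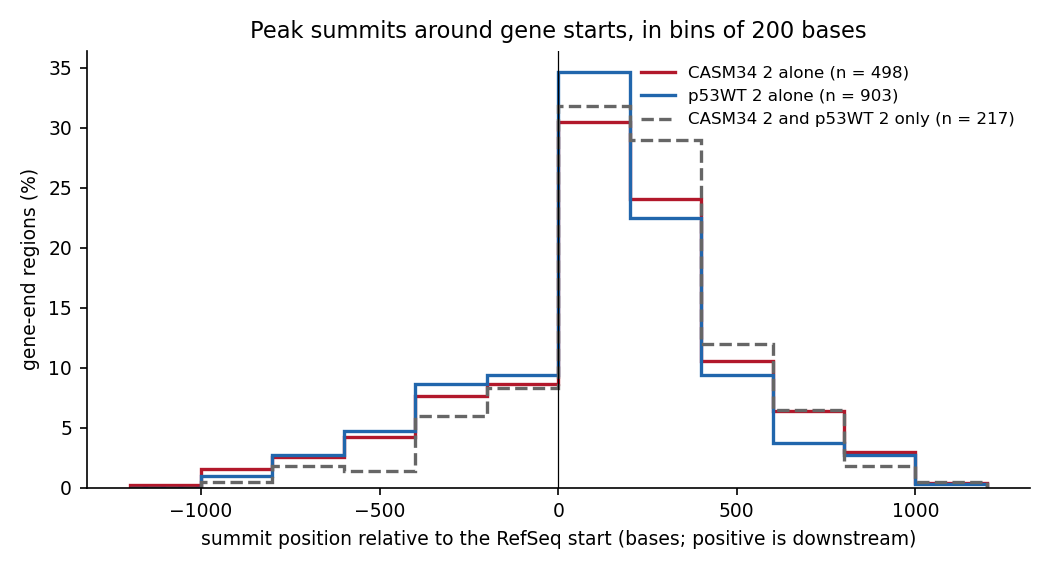
Share of gene-end regions (vertical axis, percent) by position of the summit relative to the RefSeq start (horizontal axis, bases, in bins of 200), for regions of CASM34 2 alone, of p53WT 2 alone and of both number 2 libraries only. All 3 curves are highest in the bin just after the start, where 30.5% of the 498 regions of CASM34 2 alone lie.

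Promoters at members were rich in CpG, like those of the other gene-end sets. Promoter windows were used for 526 member genes, and outside chromosome 8, which was not used here for sequences, 86.3% of member genes and 82.1% of all protein-coding genes had one. Median GC content was 69.0% at members, against 69.3% at p53WT 2 alone and 62.3% over all 15812 promoters. A CpG ratio (observed over expected) of at least 0.6 was found in 92.8% of member promoters (95% interval 90.2 to 94.8), in 93.7% at p53WT 2 alone and in 62.8% of all promoters. At regions called in CASM34 2 and p53WT 2 only the share was higher, at 97.9% (95.1 to 99.3), with a median GC content of 69.3%. The difference between the sets was not tested.

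Matches to the p53 half-site were not frequent in these windows. An exact match to the 10-base half-site consensus, on either strand, stood in 12 of 526 member promoters (2.28%, 95% interval 1.18 to 3.95), in 50 of 930 at p53WT 2 alone (5.38%, 4.02 to 7.03) and in 6.06% of all promoters. Among all promoters with a CpG ratio of at least 0.6 the share was 4.42%. At regions called in CASM34 2 and p53WT 2 only it was 4.64% (2.34 to 8.15). The members thus had the lowest share of these sets, and no difference was tested. The core tetramer CATG stood in 43.0% of member promoters, 36.8% at p53WT 2 alone and 50.3% of all. It stood in 39.2% at regions called in CASM34 2 and p53WT 2 only and in 41.4% of the CpG-rich promoters. The 12 genes with a half-site included PELI1, ABCA1, MAPKAP1, H3C15 and ZNF548, and no direct target was among them. Among members with a −log10 q of at least 5 the share was 5.71%, with a 95% interval of 0.70 to 19.2 that includes 2.28%. Since most summits lay outside the promoter window, the count describes the window and not the sequence under the peaks.

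GGGCGG and TATAAA, the box bound by TBP, had shares at members near those of CpG-rich promoters in general. GGGCGG stood in 81.2% of member promoters, 79.7% at p53WT 2 alone, 56.6% of all promoters and 77.8% of those with a CpG ratio of at least 0.6. TATAAA stood in 4.75% of member promoters, against 10.2% of all and 4.58% of the CpG-rich ones. CCAAT stood in 33.7% of member promoters, 35.8% of all and 34.6% of the CpG-rich ones. For the ETS motif CCGGAAG the shares were 16.7% at members, 13.8% in all and 19.9% in CpG-rich promoters, and for the E-box CACGTG 8.94%, 8.45% and 10.7%. The members' 95% intervals, 13.6 to 20.2 and 6.64 to 11.7, include both comparison shares. The CRE TGACGTCA had 2.28%, 2.49% and 3.52% in the same order, and the palindromic 10-base NRF1 motif 2.47%, 1.61% and 2.50%. CATG also lies inside the NRF1 motif and can lie inside a half-site, so these counts overlap.

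**Figure D5:**
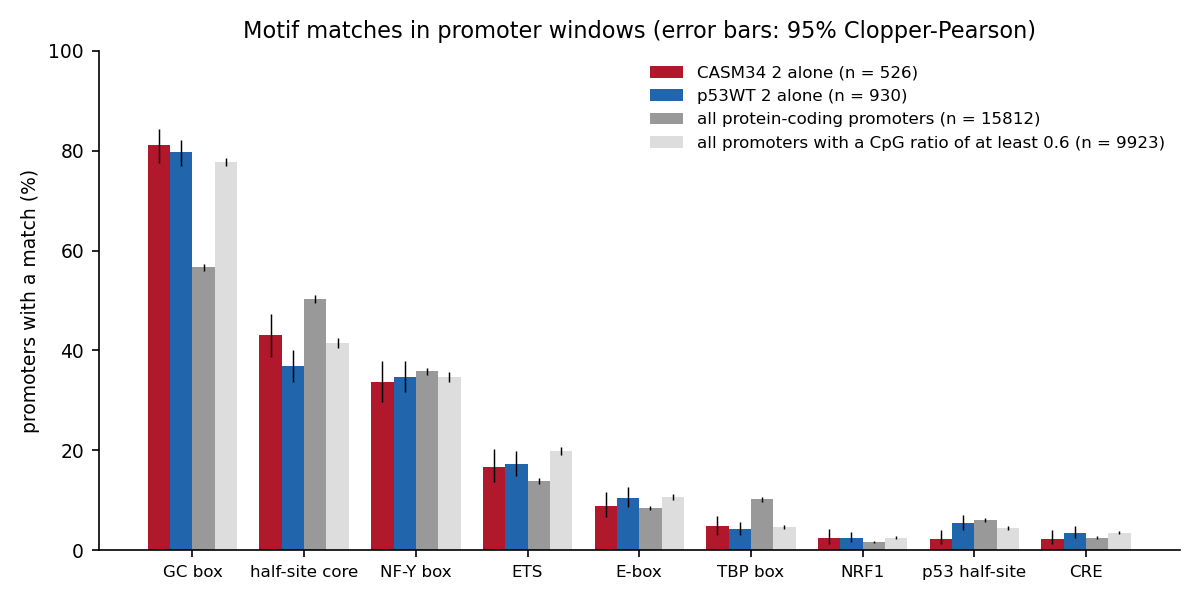
Share of promoter windows (vertical axis, percent) with at least 1 match on either strand to each motif, for promoters at regions of CASM34 2 alone, at regions of p53WT 2 alone, all protein-coding promoters and those with a CpG ratio of at least 0.6; error bars are 95% Clopper-Pearson intervals. The GC box is the most frequent at regions of CASM34 2 alone (81.2%), and the p53 half-site is at 2.28%.

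Members were spread unevenly over the chromosomes. Per 100 protein-coding genes there were 6.43 on chromosome 8, 6.08 on 7, 5.62 on 6, 5.57 on 12 and 5.20 on 5, against 3.50 over all chromosomes used. The lowest rates were 0.236 on X, 0.888 on 13, 1.69 on 11 and 1.86 on 19. Regions of p53WT 2 alone were also most frequent per gene on 7 (12.7) and 8 (11.9) and least on X (0.590).

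At the 1 kb limit, the members just inside were POU3F2 at 998 bases (−log10 q 1.32) and LOC124903406 at 996.5 bases (3.94). Regions of CASM34 2 alone just outside it were those near BASP1 at 1000.5 bases (1.83) and ALKBH5 at 1005 bases (5.25). The lowest deposited −log10 q was 1.31 in every list.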

How the data were processed

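Peaks of p53 ChIP-seq were analysed in 2 CASM34 and 2 p53WT libraries of H1299 cells. Per the labels' protocols, chromatin was digested by MNase and then sonicated. GRCh38 was the build and Bowtie2, Trim Galore and bedtools were among the tools, per the submitters' processing notes. Which caller, control and threshold gave the peaks is not given in the sources used here. Deposited lists, 1 per library and not pooled, give per peak an interval, a summit, a fold (a ratio of signal over background), a −log10 p, a −log10 q and a score that follows the −log10 q. These are values of the authors, ranked here inside 1 list at a time. At some loci values of several lists are given side by side, and some alternatives put 1 limit on every list. The lists hold no read counts, so depth is unknown and such values are not known to share a scale.

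Of rows sharing an interval, the row of highest −log10 p was kept. Intervals were merged by an overlap of at least 1 bp with Python 3.11.15. Gene ends, starts, strands and promoter windows (250 bases before to 50 after the start) came from RefSeq tables of GRCh38.p14. The table of starts gave strand for 15812 of 19974 protein-coding genes; in 5106 of these the start is not the outermost annotated end. The 23 gene lists held 239 symbols, 1 of them matched by an older symbol, and families defined by symbol. Members and lists were chosen with earlier results of these data known.

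The rule for named genes took CDKN1A, MDM2, every direct target at a member, the 10 members of highest −log10 q, up to 4 members of each other list, the 3 of lowest −log10 q, and those beside the 1 kb limit; members with more than 1 CASM34 2 peak numbered 0. Promoters of highest −log10 q were considered for printing in order; stretches inside another or a longer annotated gene and unnamed loci were passed over, and 3 of the first 5 left are shown. A summit in the window was found for 79 promoters, of which 0 belong to direct targets. No test was run, since peak calls of single libraries chose the members. Shares carry exact Clopper-Pearson 95% intervals from scipy 1.17.1, which cover counting error only. The search and merging code was tested on simulated data. Values of 1 gene are not reported here.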

Additional observations from a re-analysis of the deposited data

How the results depend on the processing

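Over 14 alternatives, 75 of 112 recomputed values stayed within their interval or within 1.5 times the count, and 37 moved. With a −log10 q of at least 2 in every list the median −log10 q was 3.21 and the share with another library's peak within 10 kb 13.6%, against 2.63 and 19.7%. At 3 in every list there were 381 regions, 97.6% at a start, a median −log10 q of 3.94, 8.66% near another peak and a median CpG ratio of 0.899, against 0.868. At 5 in every list there were 91 regions, 31.7% of CASM34 2 alone at a gene end, a median of 5.64 and 3.30% near another peak. These regions gave 7 direct targets (4.43% of their list, against 0.571% of all genes), a CpG ratio of 0.900 and half-sites in 5.63%. With the limit on CASM34 2 only, 293 regions had a median of 3.77, 10 direct targets and a CpG ratio of 0.895 at 3; at 5, 45 regions made up 28.5% of those alone, with a median of 5.64, 3 direct targets, 0.902 and half-sites in 5.71%. Fewer peaks enter at each stricter limit. With the limit on CASM34 2 only, direct targets were at 6.33% (at 3) and 1.90% (at 5) of their list, against 1.72% and 0.270% of all genes. The share near another peak was then 20.5% and 20.0%. Lists of equal length (1591 peaks) gave 266 regions, 175 of them members, with a median of 4.42, 7.52% near another peak, 9 direct targets (319 of all 19974 genes) and a CpG ratio of 0.902. The share near another peak was 26.3% when at least 50% of the shorter peak had to overlap and 4.10% when a peak within 1 kb counted as shared. The gene-end share was 34.8% within 500 bp and 51.0% within 2 kb. Without a replicate, the gene-end share ran from 43.0% to 47.9%, the median −log10 q from 2.63 to 2.85, the share near another peak from 2.98% to 19.6%, and direct targets from 16 to 27. The values 47.9%, 2.85, 2.98% and 27 came without p53WT 2, when 1042 regions qualified. Without CASM34 2 no region can qualify. With the summit in place of the midpoint 695 of the 700 stayed. No paired analysis was possible because no result comes from a test.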

Other observations

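Long non-coding RNA genes accompanied many of these regions. In 139 of the 700 (19.9%, 95% Clopper-Pearson lower bound 17.0) a RefSeq lncRNA gene also ended at most 1 kb from the midpoint, against 21.8% of the p53WT 2 alone regions and 28.6% of the regions called in CASM34 2 and p53WT 2 only. Chosen after their values were seen, they included divergent transcripts such as WDR35-DT, BTG1-DT, PIK3CA-DT and SOD1-DT, and the antisense gene MAPKAPK5-AS1. MicroRNA genes lay within 1 kb of 5 regions (MIR636, MIR4515, MIR12115, MIR4442 and MIR5091), or 0.714%, against 0.763% of the p53WT 2 alone regions. For snoRNA genes the count was 2 (0.286%, against 0.0763%) and for tRNA genes 2 (0.286%, against 0.153%). Regions called in CASM34 2 and p53WT 2 only gave 0 for each. These counts are small and no difference was tested.

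Only 2 of the 700 peaks had more than 1 deposited summit. They were at RB1CC1, an autophagy initiation gene (chromosome 8, 52713708 to 52714239, −log10 q 4.82), and at MAP3K9, a kinase gene (chromosome 14, 70808838 to 70809504, −log10 q 4.48). Both were chosen after their values were seen.

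CASM34 1 came within 1 kb of a member in 6 cases. The nearest, also chosen after their values were seen, were at GID4 (113 bases away, the member's −log10 q 3.07), CORO1C (176 bases, 1.39), HAPSTR1 (243 bases, 1.49) and APOLD1 (371 bases, 2.57).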
